A study of Homo sapiens with 12 samples.

Results

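CDX1, CDX2, HNF4A, KLF4 and KLF5 encode transcription factors of the gut epithelium, and VIL1, CDH17, LGALS4 and FABP1 encode proteins of the differentiated enterocyte. These 9 genes were taken by name from the 34687 gene rows of an expression array series. The series was made in HCT116, a colorectal cancer line, and PANC1, a pancreatic adenocarcinoma line, and asked how the transcriptome responds to inhibition of the coactivator CBP alone or of CBP together with p300. Each line was grown with 0.05% DMSO as the vehicle control, with 10 uM ICG-001, which blocks the binding of beta-catenin to CBP, or with 10 uM C646, which competes with acetyl-CoA in CBP and p300, and each treatment was harvested at 12 h and at 96 h. The 12 resulting groups were each given as 1 column of values, the mean of 2 arrays made by the authors (3 arrays for PANC1 with ICG-001 at 12 h). With 1 value per group there was no spread between replicates to set against a difference, and every fold change given here is a ratio of 2 such means, with no test. Both lines are long-established cultures of tumor cells, so neither stands for normal intestine. The cells harvested at 96 h were started at a lower density than those harvested at 12 h, were passaged, and received fresh medium and drug daily, so time, density and passage cannot be told apart.

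The gut epithelium is renewed from stem cells held in a dividing state by WNT signaling through beta-catenin and TCF/LEF factors. As daughter cells leave that state they differentiate under CDX1, CDX2 and HNF4A into absorptive enterocytes, or into goblet, Paneth and enteroendocrine cells. CDX2 sets intestinal identity, KLF5 is a factor of dividing crypt cells, and KLF4 is a factor of postmitotic cells nearer the lumen and of goblet cells. KLF4 and KLF5 both bind GC-rich boxes. The markers mark the end of this course: VIL1 (villin) bundles actin in the brush border, CDH17 (LI-cadherin) joins enterocytes, LGALS4 (galectin-4) is a lectin of the apical membrane, and FABP1 carries fatty acids in the cytoplasm.

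CDX2, KLF4 and KLF5 gave the highest signals over background, and the 250 bases before their annotated starts are shown because these are the genes the results turn on and their promoters differ in base composition. The sequences come from RefSeq (GRCh38.p14) and are written 5′ to 3′ on the strand of the gene. Capitals mark matches on either strand to CTTTGA (the core bound by TCF/LEF factors), TTTAT (a core bound by CDX factors) and GGGCGG (a GC box bound by SP and KLF factors). No matches of different motifs overlapped.
CDX2, chr13:27969316-27969565, minus strand: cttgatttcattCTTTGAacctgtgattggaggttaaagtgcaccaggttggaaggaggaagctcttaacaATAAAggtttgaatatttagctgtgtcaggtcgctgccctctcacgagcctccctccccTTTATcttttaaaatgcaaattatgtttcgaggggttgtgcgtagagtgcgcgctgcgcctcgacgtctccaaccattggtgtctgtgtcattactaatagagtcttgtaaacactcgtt
KLF4, chr9:107489770-107490019, minus strand: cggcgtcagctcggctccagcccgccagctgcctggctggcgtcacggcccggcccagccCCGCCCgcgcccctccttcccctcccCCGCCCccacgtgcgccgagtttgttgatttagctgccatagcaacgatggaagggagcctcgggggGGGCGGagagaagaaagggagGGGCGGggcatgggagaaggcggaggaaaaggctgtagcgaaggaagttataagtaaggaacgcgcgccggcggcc
KLF5, first start, chr13:73054726-73054975, plus strand: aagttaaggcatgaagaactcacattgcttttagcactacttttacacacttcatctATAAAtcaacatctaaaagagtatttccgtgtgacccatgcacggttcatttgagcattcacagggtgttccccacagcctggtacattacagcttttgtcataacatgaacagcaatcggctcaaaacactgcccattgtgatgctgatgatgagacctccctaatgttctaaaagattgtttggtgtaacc
KLF5, second start, chr13:73058755-73059004, plus strand: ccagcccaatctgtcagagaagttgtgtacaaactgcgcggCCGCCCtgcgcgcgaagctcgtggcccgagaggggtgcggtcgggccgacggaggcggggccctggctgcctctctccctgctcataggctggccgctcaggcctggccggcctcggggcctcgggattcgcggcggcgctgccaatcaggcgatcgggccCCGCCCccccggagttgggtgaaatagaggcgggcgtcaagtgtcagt

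The CDX2 window held 1 CTTTGA, 238 bases before the start, and 2 copies of TTTAT, at 179 and 120 bases before it. The KLF4 window held 4 copies of GGGCGG, at 190, 164, 97 and 76 bases before the start, and neither of the other motifs. For KLF5 the table gave a pair of starts: the first window held 1 TTTAT, and the second held 2 copies of GGGCGG. In GC content the windows of KLF4 (69.2%) and of the second KLF5 start (70.8%) lay above those of CDX2 (45.2%) and of the first KLF5 start (40.8%). All 3 motifs are short and frequent: CTTTGA was found in 11.2%, TTTAT in 32.7% and GGGCGG in 42.6% of 35116 promoter windows of this length. A match describes the sequence and says nothing of occupancy in these cells, and which start was in use cannot be read from the array.

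The values were linear signals that had been quantile-normalized without subtracting background. An unexpressed gene therefore does not read 0 but sits in a narrow background peak below the median of its column. The peak lay at 127.3 to 128.2 in HCT116 and at 121.2 to 122.6 in PANC1. The medians of the 12 columns were 139.1 to 139.6 in HCT116 and 132.7 to 133.5 in PANC1. A detection limit was set for each column at the upper 1% tail of that peak, which lay between 142.0 and 144.3 in HCT116 and between 134.2 and 138.3 in PANC1, and 44.2% to 48.5% of all rows lay above the limit of their column. Because background remained in the signals, ratios of dim genes were compressed. As a measure of technical scatter, the ratios of genes below the limit throughout a line had SDs of 0.06 to 0.07 on the log2 scale, so that 2 SD came to at most 0.15 in either line. That scatter comes from dim genes and array means, and it leaves out the variation between cultures.

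By this limit, CDX2 and KLF4 were detected in all 12 columns and KLF5 in all 6 HCT116 columns, whereas 3 of the 9 genes were not detected anywhere. At the stricter limit of 5 SD above the background peak, KLF4 was above it in 5 of the 6 PANC1 columns, and CDX2 in all 12. CDX1, which partners CDX2 in the intestine, gave 118.6 to 132.5 in HCT116 and 112.4 to 122.0 in PANC1, below the limit in every column. HNF4A, a nuclear receptor of hepatic and intestinal epithelium, gave 126.1 to 136.4 and 121.2 to 127.2. VIL1 gave 111.6 to 121.9 and 111.0 to 120.1, so none of these 3 genes left background with either drug. Each gene was given as 1 value, and transcripts that the array's probes do not cover would be missed.

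The remaining markers lay at the edge of detection. CDH17 was below the limit in HCT116 (124.5 to 133.8) and above it in 2 of 6 PANC1 columns, by at most 1.02-fold. FABP1 was above it in 1 HCT116 column, DMSO at 96 h (145.9), and in 1 PANC1 column, DMSO at 12 h (140.4), again by 1.02-fold. With a limit at a 1% tail, single crossings of this size are within what the limit itself allows, and none of the CDH17 or FABP1 values passed the limit of 5 SD.

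LGALS4 showed the one sign of marker signal, and it was in the pancreatic line. In HCT116 it gave 124.1 to 133.3, below the limit in all columns. In PANC1 at 12 h the signal was 136.3 for DMSO, 138.7 for C646 and 141.2 for ICG-001. At 96 h it was 142.8 for DMSO, 143.5 for ICG-001 and 155.1 for C646. All but the first exceeded the limit, but only the last passed 5 SD, and no step between neighbors in this order exceeded 2 SD of background scatter. C646 over DMSO at 96 h was 0.12 on the log2 scale, a difference inside that scatter.

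**Figure D1:**
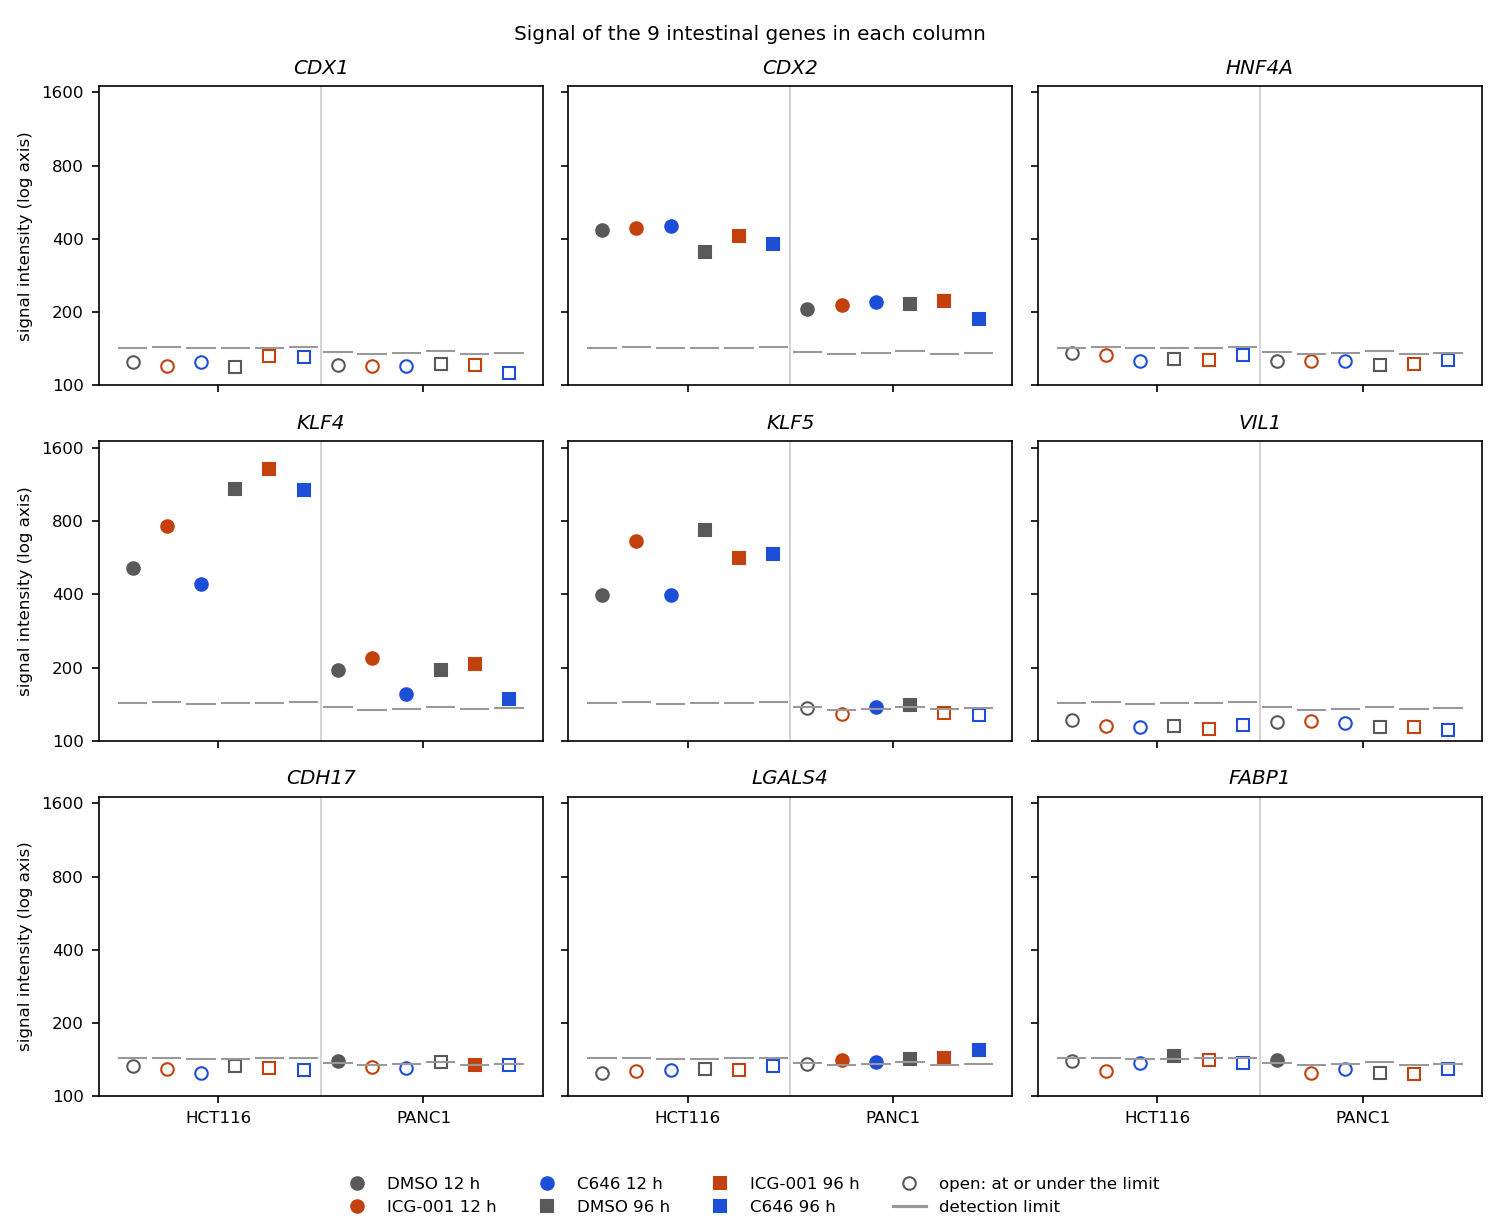
Signal of each of the 9 genes in the 12 columns, on a log axis, with 1 panel per gene and the cell lines side by side. Circles are 12 h and squares 96 h; grey is DMSO, orange ICG-001 and blue C646; open symbols lie at or below the detection limit of their column, drawn as a grey dash. CDX2 and KLF4 stand above the limit in both lines and KLF5 in HCT116, while CDX1, HNF4A and VIL1 stay below it throughout.

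CDX2, the homeodomain factor of intestinal identity, was detected in every HCT116 column within a narrow range. At 12 h its signal was 435 for DMSO, 445 for ICG-001 and 452 for C646, and at 96 h it was 354, 411 and 382. All 3 values at 96 h were thus below all 3 at 12 h, although no step between neighbors in the order exceeded 2 SD of background scatter. ICG-001 over DMSO was 0.03 on the log2 scale at 12 h and 0.22 at 96 h, and C646 over DMSO was 0.05 and 0.11. The largest of these is a 1.16-fold difference, short of the 1.5-fold that was counted as a change.

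In PANC1, CDX2 was detected at a lower signal and also within a narrow range. For DMSO, ICG-001 and C646 it gave 206, 215 and 220.2 at 12 h, and 217, 223 and 187 at 96 h. The 96 h C646 column was the lowest, with a log2 ratio over its DMSO column of -0.21. The other ratios over DMSO were 0.06 and 0.04 for ICG-001 at 12 h and 96 h and 0.10 for C646 at 12 h. CDX2 was thus detected throughout while CDX1, HNF4A and the 4 markers were at or near background, and neither drug moved it by 1.5-fold at either time in either line.

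KLF4, the zinc-finger factor of postmitotic gut epithelium, was higher with ICG-001 than with C646 at both times in both lines. In HCT116 at 12 h its signal was 512 for DMSO, 761 for ICG-001 and 440.5 for C646. At 96 h it was 1081, 1316 and 1070.1 in the same order. The time points did not overlap, and at each of them ICG-001 gave the highest value and C646 the lowest. At 96 h, however, the step between C646 and DMSO was inside background scatter, so those columns could not be ordered. Over DMSO, ICG-001 gave log2 ratios of 0.57 (1.49-fold, just short of 1.5-fold) at 12 h and 0.28 at 96 h, and C646 gave -0.22 and -0.01.

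The PANC1 values of KLF4 were lower and were in the same order. For DMSO, ICG-001 and C646 the signal was 196, 219 and 157 at 12 h, and 195, 207 and 149 at 96 h. Both C646 columns were below both DMSO columns, whose log2 ratio was -0.01, and both ICG-001 columns were above them. Ratios over DMSO were 0.16 and 0.08 with ICG-001, of which the second was inside background scatter, and -0.32 and -0.39 with C646. PANC1 KLF4 lay close enough to the limit for background to matter: after normexp background correction, C646 over DMSO at 96 h was -0.59, which reaches 1.5-fold.

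Since both drugs were set against the same DMSO columns, they were also compared directly, which uses no control. ICG-001 over C646 for KLF4 was 0.79 at 12 h (1.73-fold) and 0.30 at 96 h in HCT116, and 0.48 (1.40-fold) at 12 h and 0.47 (1.39-fold) at 96 h in PANC1. KLF4 was thus at least 1.2-fold higher with ICG-001 in each of the 4 comparisons. Among the 11792 genes above the limit in all 12 columns, 291 (2.47%) met that description and 226 (1.92%) met its opposite, a count made after the values of KLF4 were seen. For CDX2 the same ratios were -0.02, 0.10, -0.04 and 0.25, with no common sign.

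KLF5, the zinc-finger factor of dividing crypt cells, gave the one change of 1.5-fold over DMSO among the 9 genes. In HCT116 at 12 h its signal was 397 with DMSO, 662 with ICG-001 and 396 with C646. The ICG-001 column was 1.67-fold higher than DMSO (0.74 on the log2 scale), whereas C646 and DMSO could not be separated. At 96 h the order was turned, at 738 with DMSO, 564 with ICG-001 and 585 with C646, and both drugs lay below DMSO, with log2 ratios of -0.39 and -0.33.

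The ratio of KLF5 with ICG-001 over DMSO thus moved by -1.12 on the log2 scale from 12 h to 96 h. Of 15830 genes measured in both comparisons, 111 moved further. Its level with ICG-001 itself was 662 and then 564, a log2 ratio of -0.23, while the DMSO level was 397 and then 738. ICG-001 over C646 was 0.74 at 12 h (1.67-fold) and -0.05 at 96 h. In PANC1, KLF5 gave 128.2 to 140.3 and passed the limit in 2 of 6 columns, by at most 1.02-fold, and in none at 5 SD, so no PANC1 response could be read.

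Between harvests, KLF4 and KLF5 both changed in HCT116 without drug. With DMSO, KLF4 was 2.11-fold higher at 96 h (1.08 on the log2 scale) and KLF5 1.86-fold higher (0.89). These were 2 of the 4 members that could be compared there, against 3.07% of all 16898 genes tested that changed and 1.53% that were higher, and 33 of those genes differed by more than KLF4 and 91 by more than KLF5. With ICG-001, KLF4 was 1.73-fold higher at 96 h, the one member changed, against a background of 6.82% changed and 4.06% higher. With C646 it was 2.43-fold higher, again the one member, against 7.01% changed and 3.77% higher, and KLF5 was 1.48-fold higher. CDX2 lay in the other direction in all 3 treatments, at -0.30 for DMSO, -0.12 for ICG-001 and -0.24 for C646. Between the PANC1 harvests none of the members changed by 1.5-fold (background 1.32% with DMSO, 3.88% with ICG-001 and 0.476% with C646), and KLF4 differed by -0.01, -0.08 and -0.07 with DMSO, ICG-001 and C646.

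**Figure D2:**
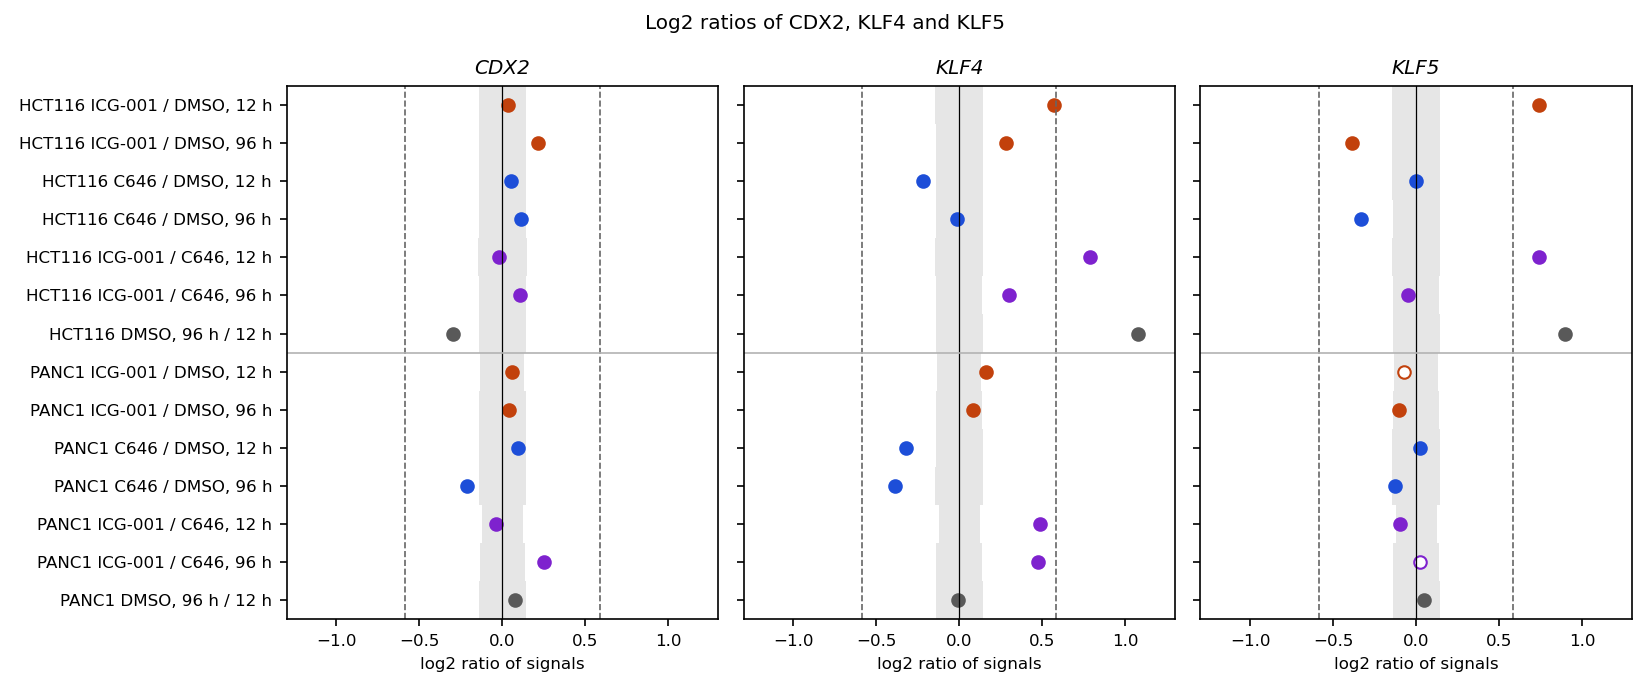
Log2 ratios of CDX2, KLF4 and KLF5 for each drug over DMSO of the same line and time, ICG-001 over C646, and 96 h over 12 h. The grey band is 2 SD of the ratios of genes below the limit to either side of 0, the dashed lines mark 1.5-fold, and open symbols are ratios for which neither column was above the limit. KLF5 in HCT116 with ICG-001 at 12 h (0.74) is the one ratio over DMSO past the dashed lines, and KLF4 with ICG-001 over C646 is positive in all 4 comparisons.

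Counts of members changed by 1.5-fold are given beside the shares of all genes tested. In HCT116 with ICG-001 at 12 h, 1 of the 3 members above the limit (KLF5) was changed, against 8.95% of all genes tested that changed and 4.8% that were higher. In the other 7 comparisons with DMSO none was, where the background in HCT116 was 10.1% for ICG-001 at 96 h and 4.04% and 3.12% for C646 at 12 h and 96 h. In PANC1 it was 2.48% and 7.35% for ICG-001 and 6.64% and 4.02% for C646. With 3 to 6 members able to enter a comparison, a background of this size allows a count of 0 or 1, and the counts say nothing particular about these genes. By size, the ratio of KLF5 with ICG-001 at 12 h in HCT116 was larger than that of 95.2% of tested genes and that of KLF4 larger than 90.5%. For C646 at 96 h, KLF5 in HCT116 exceeded 87.0% and KLF4 in PANC1 89.4%. These shares and ranks include dim genes, whose ratios were compressed. For ICG-001 at 12 h in HCT116, 1529 of 17090 genes were called, and the same 1529 of 12839 with the limit at 5 SD. Of the comparisons of ICG-001 with C646, HCT116 at 12 h had 2 of 3 members changed (KLF4 and KLF5, both higher with ICG-001) against 6.15% changed and 3.38% higher, and the others had none against 6.54% in HCT116 at 96 h and 2.46% and 6.72% in PANC1 at 12 h and 96 h.

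Across the lines, the detected factors were higher in HCT116. The 2 lines seem to have been normalized apart, since the sorted values of columns lay 0.0037 to 0.0093 (log2) from each other within a line and 0.0628 to 0.0661 between lines. With DMSO, the log2 difference of HCT116 over PANC1 was 1.08 at 12 h and 0.70 at 96 h for CDX2, 1.39 and 2.47 for KLF4, and 1.55 and 2.39 for KLF5. For KLF5 these compare a detected level with one at the limit, and they understate the difference. After joint quantile normalization of the 12 columns the values were 1.07 and 0.71, 1.39 and 2.50, and 1.54 and 2.41. LGALS4, below the limit in HCT116 and near it in PANC1, gives no readable difference.

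Other enterocyte genes were detected in part. Of 40 further enterocyte and brush border genes on the array, 17 were above the limit in at least 1 HCT116 column and 9 in all 6, and 18 and 8 in PANC1. For the 40 genes these are 42.5% and 45.0% above the limit in any column, beside 55.8% and 56.5% of all rows. Those not detected in either line included the disaccharidases SI, LCT and MGAM, the brush border myosin MYO1A, the colonocyte ion exchanger SLC26A3, the lipid-handling genes FABP2, MTTP, APOA4 and APOB, and the guanylin genes GUCA2A and GUCA2B. Those detected in every column of both lines were EZR (ezrin), PLS1, EPS8, CA2, TSPAN1 and MALL, several of which are broadly expressed in epithelia. As bulk arrays give an average over cells, fewer cells with a transcript and less of it per cell cannot be told apart. Of the markers of other gut cell types in HCT116, 3 of 9 goblet, 2 of 5 Paneth, 2 of 6 enteroendocrine and 5 of 8 stem cell genes passed the limit in any column. In PANC1 the counts were 5 of 9 goblet, 0 of 5 Paneth, 3 of 6 enteroendocrine and 3 of 8 stem cell genes. The shares of all rows were again 55.8% in HCT116 and 56.5% in PANC1. Epithelial markers were above the limit in all columns of both lines (8 of 8).

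**Figure D3:**
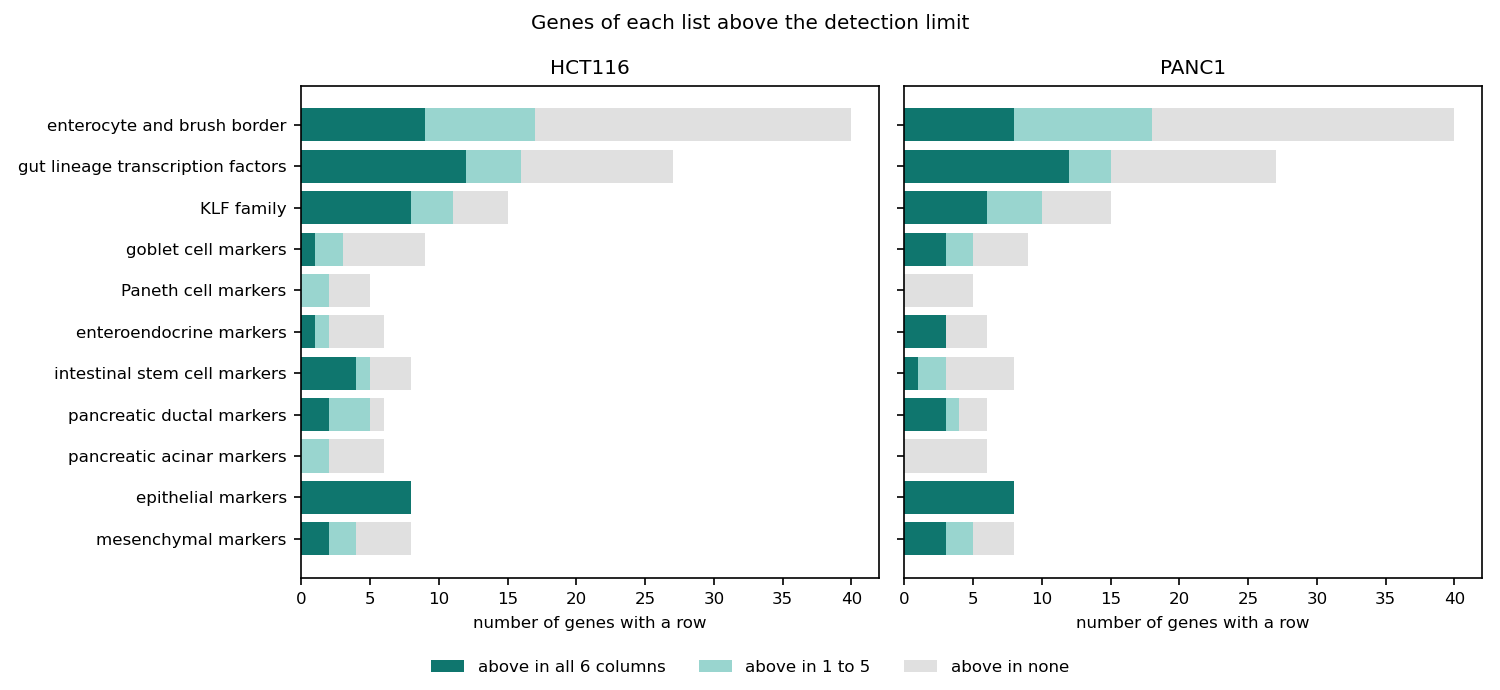
Number of genes of each list above the detection limit in all 6, in 1 to 5, or in none of the columns of each cell line, as stacked bars. Of the 40 enterocyte and brush border genes 9 in HCT116 and 8 in PANC1 were above the limit throughout, while all 8 epithelial markers were so in both lines.

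Of the enterocyte genes that entered, few changed by 1.5-fold with a drug, and those were lower. In HCT116 with ICG-001 these were PLS1 (-0.76 on the log2 scale), an actin bundler of microvilli, and CA2 (-1.26), a carbonic anhydrase, of 12 genes at 12 h, and ESPN (-0.61), another actin bundler, of 15 at 96 h. In PANC1 they were, of 13 genes, the peptidase ANPEP (-0.72) and PLS1 (-0.87) for ICG-001 at 96 h, and ANPEP alone (-1.28), again of 13, for C646 at 12 h. The other comparisons with DMSO had none. These had 14 and 16 genes for C646 in HCT116 at 12 h and 96 h. In PANC1 they had 12 for ICG-001 at 12 h and 14 for C646 at 96 h. Of all genes tested, 4.14% and 5.06% were lower for ICG-001 in HCT116 at 12 h and 96 h, 3.53% for ICG-001 in PANC1 at 96 h, and 2.68% for C646 in PANC1 at 12 h. The shares changed in either direction were 8.95%, 10.1%, 7.35% and 6.64% in the same order. In the comparisons with none they were 4.04%, 3.12%, 2.48% and 4.02%. Shares of this size allow counts of 0 to 2, which say nothing particular about enterocyte genes. In PANC1 with ICG-001 at 96 h the epithelial markers had a median of -0.51, with EPCAM (-0.78) and KRT8 (-1.06) lower and none of the 8 higher. The pancreatic ductal genes had no common direction there. Of the 3 that entered, the keratin KRT19 was lower (-1.17) and MUC1 higher, and their median was 0.21. The part of the epithelial markers in these enterocyte ratios was not tested. The medians of the enterocyte list were -0.19 to 0.03 over the 8 comparisons, beside medians of all tested genes of -0.01 to 0.01.

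Among 27 other transcription factors of the gut lineage, 16 in HCT116 and 15 in PANC1 passed the limit in any column. The one factor that changed in both lines was SOX9, which acts in crypt progenitors and in pancreatic ducts, and it was lower with C646. In HCT116 its signal was 1058 with DMSO and 399 with C646 at 12 h, and 1523 and 932 at 96 h, log2 ratios of -1.41 and -0.71. In PANC1 the ratios were -0.96 and -0.88. The shares of all tested genes that were lower with C646 at 12 h and 96 h were 1.5% and 1.22% for HCT116, and for PANC1 2.68% and 1.19%. EHF, an epithelial ETS factor, was also lower with C646 in HCT116, by -1.08 and -0.63, and with ICG-001 at 96 h (-0.69). With ICG-001 in HCT116, MYB, a factor of crypt progenitors, was lower at 12 h (-1.32) and close to DMSO at 96 h (-0.01), and PPARG was higher at 96 h (0.98). MYB was the one changed of 14 factors that entered at 12 h. At 96 h, of 16 factors, PPARG was the one higher and EHF the one lower. Of all genes tested, 4.14% were lower at 12 h, and 5.08% were higher and 5.06% lower at 96 h. GATA5, an endoderm factor, was higher in PANC1 with C646 at 12 h (0.74), the one higher of 13 factors, beside 3.97% of all genes tested. In PANC1 none of the 14 factors at 12 h and 13 at 96 h that entered changed with ICG-001, beside 2.48% and 7.35% of all genes tested.

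Within the KLF family, KLF4 and KLF5 have 15 relatives on the array, and those changed by 1.5-fold with ICG-001 were all higher. They were 2 of 9 in HCT116 at 12 h (KLF2 and KLF6), 2 of 10 at 96 h (KLF2 and KLF11), 1 of 10 in PANC1 at 12 h (KLF6) and 2 of 10 at 96 h (KLF11 and KLF13). The shares of all tested genes that were higher were 4.8%, 5.08%, 2.15% and 3.82%. With C646, KLF9 was lower in HCT116 at 12 h (-0.65, 1 of 10 that entered) and higher in PANC1 at 96 h (0.59, 1 of 6). No other relative changed with C646. Of all genes tested, 1.5% were lower in the first of these comparisons and 2.82% higher in the second.

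KLF2, which is best known from endothelial and T cells, had the order of KLF4. Its signal in HCT116 for DMSO, ICG-001 and C646 was 3062, 5042 and 2205 at 12 h, and 2853, 4338 and 2364 at 96 h. On the log2 scale, HCT116 gave 0.72 and 0.60 for ICG-001 over DMSO and -0.47 and -0.27 for C646 over DMSO. PANC1 gave 0.24 and 0.28 for ICG-001, and for C646 -0.24 and -0.38. In HCT116 the ratios of KLF6 with ICG-001 over DMSO resembled those of KLF5, at 0.94 at 12 h and -0.17 at 96 h. The levels behind these ratios took different courses. From 12 h to 96 h, KLF6 was counted as lower with ICG-001 and was not counted as changed with DMSO. KLF5 was higher with DMSO (0.89) and was not counted as changed with ICG-001 (-0.23). The likenesses of KLF2 to KLF4 and of KLF6 to KLF5 were noticed after the values were seen.

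The genes whose signals most resembled those of the members over the 6 columns of a line were listed by Pearson's r, as a description without a test. In HCT116 they were SUGT1, DBNL and RMI1 for CDX2 (r of 0.998, 0.996 and 0.993), CDKN2B, C4orf34 and KHNYN for KLF4 (0.986, 0.986 and 0.984), and SLC38A2, RPL37 and PITPNC1 for KLF5 (0.948, 0.937 and 0.935). In PANC1 they were LOC646753, ID3 and LOC723972 for CDX2 (0.940, 0.913 and 0.904) and SF3B4, CAMK2N1 and KRT80 for KLF4 (0.990, 0.989 and 0.976), while those for LGALS4, whose own range was near background scatter, were KLF9, BPNT1 and SUSD2 (0.965, 0.939 and 0.938). They were picked from 5445 to 5446 genes in HCT116 and 3650 in PANC1 over 6 points that share arrays. Values over 0.9 were reached by 184, 143 and 11 genes for CDX2, KLF4 and KLF5 in HCT116, and by 3, 67 and 6 for CDX2, KLF4 and LGALS4 in PANC1. Among the members in HCT116, r was 0.78 for KLF4 with KLF5, -0.71 for CDX2 with KLF4 and -0.67 for CDX2 with KLF5.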

How the data were processed

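HumanHT-12 v4 arrays were hybridized with amplified, biotin-labeled RNA. Per the labels and methods, the authors averaged and quantile-normalized the arrays, without background subtraction, in GenomeStudio (submitters' processing notes; version not given in the sources used here). The deposited values are linear signal intensity, 1 per gene name and group, and the number of probes behind each, the annotation build and the separate arrays were not analysed here. Groups came from the labels, and all 12 columns were mapped. The 9 members, the gene lists and the comparisons were chosen with earlier results of these data known.

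Log2 ratios were computed from the deposited intensity values. The background peak of each column and the SD of the values below it gave a limit at the upper 1% tail (2.33 SD above the peak), and a gene entered a comparison if above the limit in at least 1 of 2 columns and counted as changed at 1.5-fold. There were 8 comparisons of drug with DMSO, 4 of ICG-001 with C646 and 6 of 96 h with 12 h. Alternatives were folds of 1.2 and 2, a limit at 5 SD, no limit, normexp with an offset of 50, joint quantile normalization and median centring. Genes were named by rule: the members, list genes changed 1.5-fold the same way at both times of a drug in a line (at most 4 per list, line and drug), and the 3 most alike genes per detected member. The list genes named for a single time, and KLF2 and KLF6 beside KLF4 and KLF5, were chosen after their values were seen. Of 140 list genes 138 were found, 3 under an older name, and CDHR5 and PHGR1 were not. Promoters were found for 6 of the 9 members in the RefSeq table (GRCh38.p14). Of the steps, only the call rule was tested on simulated data, with 2-fold changes put into genes well above the limit. Tools were Python 3.11.15, numpy 2.4.6, scipy 1.17.1, pandas 2.3.3, matplotlib 3.10.9, R 4.3.3 and limma 3.58.1.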

Additional observations from a re-analysis of the deposited data

Results flagged for a closer look

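KLF4 differed in its response to the drugs in both lines. Averaged over 12 h and 96 h, its log2 change with ICG-001 exceeded that with C646 by 0.54 in HCT116 and by 0.48 in PANC1. It was picked out because both ratios with ICG-001 were above 0 and both with C646 below 0 in each line. The difference was not tested, as each ratio rests on 1 column per group. Both drugs were set against the same DMSO columns, and the HCT116 ratio with C646 at 96 h (-0.01) is too small to have a direction. Of the 11792 genes above the limit in all 12 columns, 157 (1.33%) had these signs in both lines.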

How the results depend on the processing

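Each group is 1 mean of 2 or 3 arrays, which limits the precision and allows no leaving out of a replicate. No paired analysis was possible because each group has 1 column and no test. The counts of members changed were the same in all 18 comparisons with joint quantile normalization and with median centring. No member's ratio changed sign past a threshold. The counts were also the same with a limit at 5 SD and with no limit. The calls over all genes did not move either (84 to 1752 with each limit), so these 2 settings put the members to no test. At 1.2-fold the counts were 2 (KLF4 and KLF5) in HCT116 with ICG-001 over DMSO at 12 h, 2 (the same genes) at 96 h, 1 (KLF5) with C646 at 96 h, 1 (KLF4) in PANC1 with C646 at 12 h and 1 at 96 h, 1 (KLF4) for ICG-001 over C646 in HCT116 at 96 h and in PANC1 at 12 h and 96 h, 2 in HCT116 with C646 at 96 h over 12 h, and 3 (CDX2 as well, which was lower) with DMSO. At 2-fold the counts were 0 for ICG-001 at 12 h over DMSO and over C646 in HCT116, 1 (KLF4) for DMSO at 96 h over 12 h, and 0 for ICG-001 at 96 h over 12 h. With normexp they were 2 (KLF4 and KLF5) for HCT116 with ICG-001 at 12 h, 1 (KLF4, -0.59) for PANC1 with C646 at 96 h, 1 for ICG-001 over C646 in PANC1 at 12 h and 1 at 96 h (KLF4, 0.69 and 0.70), and 2 for HCT116 with C646 at 96 h over 12 h. Normexp removes background and so widens ratios of dim genes. Over all genes, 84 to 1752 were called at 1.5-fold, 1497 to 5809 at 1.2-fold, 8 to 368 at 2-fold and 170 to 2529 with normexp. As shares of the genes tested, these were 0.476% to 10.1%, 8.48% to 33.6%, 0.0453% to 2.13% and 0.96% to 14.6%. At 1.2-fold, ICG-001 over DMSO in HCT116 had 5520 of 17090 genes called at 12 h and 5809 of 17285 at 96 h. With shares of this size, the members added at 1.2-fold say nothing particular about these genes.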

Other observations

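Other list genes that changed by 1.5-fold in the same direction at both times were few. In HCT116 with ICG-001, KRT7, a keratin of simple and ductal epithelia, went from 142 with DMSO, below the limit, to 389 at 12 h and from 140.02 to 336 at 96 h (1.46 and 1.26 on the log2 scale). KRT7 was the one changed of 5 ductal genes that entered at 12 h and of 4 at 96 h, with list medians of 0.22 and -0.03. In the same comparisons CLDN7, a tight junction claudin, went from 1726 to 3418 and from 1823 to 3834 (0.99 and 1.07). It was the one that changed of the 8 epithelial markers. Of all genes tested there, 8.95% and 10.1% changed, and 4.8% and 5.08% were higher. In PANC1 with ICG-001, AGR2, a secretory protein of goblet cells that is also made by pancreatic tumors, went from 3293 to 2062 and from 2995 to 982 (-0.68 and -1.61), where 0.331% and 3.53% of all genes tested were lower. At 96 h the goblet genes had no common direction: TFF3 was lower (-0.70), FCGBP was higher (1.46), and the median of the 5 that entered was -0.01.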
